A study of Danio rerio with 8 samples.

Results

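The wild-type group of a whole-larva RNA-seq study in zebrafish is described here on its own: 4 of 8 larvae, each sequenced as a separate library. The other 4 larvae are osgep G177A/G177A zygotic homozygotes and were not used. The 4 described here are wild-type siblings at 6 days post fertilization (dpf), labelled whole embryo, with no other allele, agent or treatment given. Each animal was homogenised alone, its total RNA was treated with DNase, and libraries were made after ribosomal RNA depletion with random priming. Abundance was expressed as CPM, the usual read count scaled to a common library size, after TMM scaling, which corrects each library total for differences in composition. The table held 35197 gene rows, of which 28169 had reads in at least 1 of the 4 larvae. Of these, 9545 (27.12% of the table) had a mean of 10 CPM or more, and the 200 with the largest standard deviation (SD) of log2(CPM+1) across the 4 larvae were examined in detail. By this rule the 200 make up 2.1% of the rows ranked. They were selected by the spread itself, so their spread is a description and was not tested. Of the 200, 149 carried an assigned gene symbol and 51 had only an identifier, a clone name or a placeholder. Larvae are called 1 to 4 after the replicate numbers in the labels, which carry no order.

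A zebrafish larva at this age swims, has hatched and has largely used up its yolk, so its muscle, eye, liver, pancreas and gut are all working organs. Whole-animal RNA is a sum over these organs, and a gene made by a small organ, such as the lens or the exocrine pancreas, reports on how much RNA that organ contributes. The exocrine pancreas secretes digestive enzymes, the liver supplies plasma proteins that include complement, and lens fibre cells hold crystallins in great amounts. Genes of innate immunity, the clock and muscle turnover also respond to the state of the animal at the time of collection. The labels give no clutch, tank, day, time of day or sex for a larva. They describe larval feeding in general, but not whether these animals had been fed at 6 dpf, and they state that embryos came from both single and group crosses.

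Library totals in larvae 1 to 4 were between 16642514 and 19052599 estimated counts, and a level of 10 CPM corresponded to between 144 and 199.5 counts. TMM factors ran from 0.865 in larva 2 to 1.19 in larva 1. With library totals alone as the scale, the median of all rows moved by 0.24 (log2) in larva 1 and by -0.20 in larva 2, so larva 1 and larva 2 are the animals whose levels depend most on the scaling. Across genes, Pearson's r of log2(CPM+1) between pairs of larvae was 0.931 to 0.975. osgep, which encodes the catalytic subunit of the KEOPS complex that modifies transfer RNA, was at 6.67, 9.72, 8.82 and 4.90 CPM in larvae 1 to 4, so it was detected in each of the animals labelled wild-type.

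Among the gene rows present, the most abundant messages were those of skeletal muscle and of protein synthesis. No row was found for the 28 genes named for the mitochondrial genome, so they are not part of this order. All 30 of the most abundant rows had an assigned symbol. Genes of muscle made up 14 of them, genes of translation 6, keratins 3, and digestive enzymes and chaperones 2 each. The other 3 were actb2, a cytoplasmic actin, apoa1b, an apolipoprotein, and slc25a5, an ADP/ATP carrier of mitochondria. CPM gives a gene's share of the reads, which grows with transcript length, so this order is not an order of molecules per cell.

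The most abundant row was actc1b, a muscle alpha-actin, at 20154, 41792, 41399 and 32240 CPM in larvae 1 to 4, with a mean of 33896 ± 10169 CPM (SD, n = 4). eef1a1l1, a translation elongation factor, followed at 25004 ± 5803 CPM (SD, n = 4), and myhz1.1, a fast myosin heavy chain, at 16170 ± 3880 CPM (SD, n = 4). Larva 1 was lowest for the actin and the elongation factor, whereas larva 2 was lowest for this myosin. In contrast, hspa8, a constitutive chaperone of the Hsp70 family, was at 7615 ± 748 CPM (SD, n = 4), and krt4, a keratin of the surface epidermis, at 8980 ± 1293 CPM (SD, n = 4). Both differed little between animals compared with prss59.2, a serine protease of the trypsin family, at 5193 ± 3111 CPM (SD, n = 4).

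**Figure D1:**
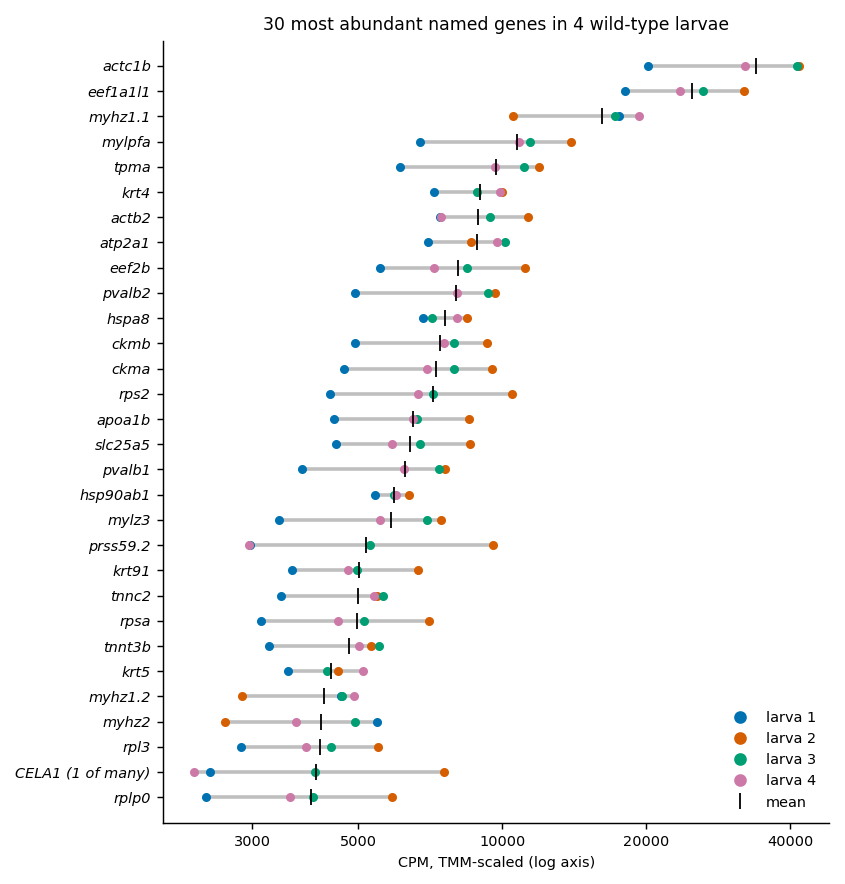
CPM (log axis) of the 30 most abundant rows, with 1 point for each of the 4 larvae, a grey line from the lowest to the highest and a black tick at the mean. Larva 1 is lowest for most of these genes, larva 2 is lowest for myhz1.1, myhz1.2 and myhz2, and the digestive enzymes prss59.2 and CELA1 (1 of many) have wide ranges with larva 2 highest.

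The single most abundant row took 3.31 ± 0.668% (SD, n = 4) of all counts in a library, taken over the gene rows present. The 10 most abundant took 13.7 ± 1.16%, the 100 most abundant 39.5 ± 3.81% and the 1000 most abundant 69.4 ± 4.25%. For the 100 most abundant rows the share was 34.3, 43.1, 41.3 and 39.2% in larvae 1 to 4. Larva 1 had the lowest share at each of these 4 numbers of rows. Larva 3 had the highest for the first row and the first 10, and larva 2 for the first 100 and 1000.

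Most genes varied little between these animals. The median SD of log2(CPM+1) over the 9545 rows was 0.228, the 25th and 75th percentiles were 0.153 and 0.333, and the 95th was 0.547. Counting error alone, computed from the number of counts behind each value, would give a median SD of 0.0676, and 330 rows (3.46%) had an SD no larger than their counting error. The highest larva was at least 2-fold above the lowest in 1200 rows (12.6%). An SD of 1 or more was seen in 58 rows (0.608%), and in 88 without larva 2 and 106 without larva 3.

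Among rows with a mean of at least 100 CPM, the least variable with an assigned symbol was nap1l1, a nucleosome assembly factor, at 346, 331, 339 and 340 CPM (SD 0.03). The next were flna, which encodes the actin cross-linker filamin A, serf2, pabpc1a, a poly(A)-binding protein, a2ml, anp32e, tfa, the plasma iron carrier transferrin, wdr43, selenop, a plasma selenium carrier, and rtn1a. All of them had an SD between 0.03 and 0.04 with TMM factors. These SDs depend on the scaling, since the median of all rows moved by 0.24 (log2) in larva 1 and by -0.20 in larva 2 with library totals alone. Levels of tfa were 1616, 1530, 1569 and 1521 CPM and those of selenop 1513, 1556, 1473 and 1575 CPM. These genes for plasma proteins were thus among the steadiest, while some others, certain complement genes named below, were among the most variable.

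The 200 most variable rows had SDs from 0.73 to 3.34, with a median of 0.887. Their median counting error was 0.0741, and in each of the 200 the SD was at least 7.17 times the counting error, with a median of 14.1 times. A high ratio follows largely from the rule, which required a large SD and a mean of 10 CPM or more. The 200 were not mainly rare messages: their median mean level was 27.7 CPM against 24.9 CPM for all ranked rows, 162 were below 100 CPM and 9 reached 1000 CPM. The boundary of the set was not a gap. The last 3 inside were si:ch211-284o19.8, sult1st2 and XLOC_036926, and the first 3 outside were cyp2r1, hck and ATG2A, and all 6 had an SD of 0.73.

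**Figure D2:**
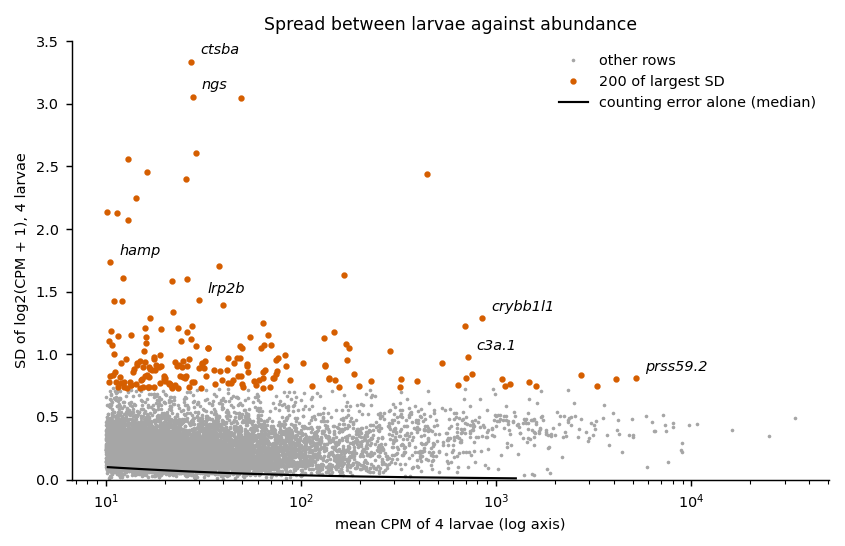
SD of log2(CPM+1) over the 4 larvae against mean CPM (log axis) for rows with a mean of 10 CPM or more, with the 200 of largest SD in orange and the median SD from counting error as a black line. By the rule, the 200 lie at 0.73 and above at every abundance, and so far above the counting line. The largest SD is 3.34, for ctsba.

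Larvae 1 and 4 set most of the spread in the 200. A larva was called farthest when leaving it out lowered the SD most. This was larva 1 in 69 rows, larva 4 in 68, larva 2 in 52 and larva 3 in 11. Larva 4 stood out mostly by low values (59 low and 9 high), and larva 1 more often by high values (43 high and 26 low). Over all ranked rows larva 1 was farthest in 44.5%, larva 2 in 27.6%, larva 4 in 17.3% and larva 3 in 10.6%, so larva 4 was farthest in a larger share of the 200 than of all rows. Without larva 4, larva 1 was farthest in 111 of the 200 rows then ranked highest.

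Rows were also sorted by which larvae lay above the widest gap in their 4 ordered values. In 50 of the 200, larvae 1, 2 and 3 lay above and larva 4 below, against 5.27% of all ranked rows. Larva 1 alone lay above in 36 of the 200 (18%), close to its 16.9% of all ranked rows, and larva 2 alone in 25 (12.5%, against 9.28%). Larva 1 alone lay below in 22 (11%, against 20.1%) and larva 2 alone in 19 (9.5%, against 12.04%). The pattern of larva 4 alone below was thus the one with the widest excess over its share of all rows. The remaining 48 rows fell into 9 other patterns of 2 to 10 rows each. Membership itself depended on single animals: 124 of the 200 stayed without larva 1 and 121 without larva 4, and 23 of the 200, of which 16 carried an assigned symbol, stayed among the 200 whichever larva was left out. These 16 were ngs, hnrnpdl, he1.1, PLBD2, lrp2b, lect2l, cfhl5, dusp23a, cyp7a1, IZUMO1R, cfb, cubn, slc15a1a, lgals1l1, pde6h and ins.

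**Figure D3:**
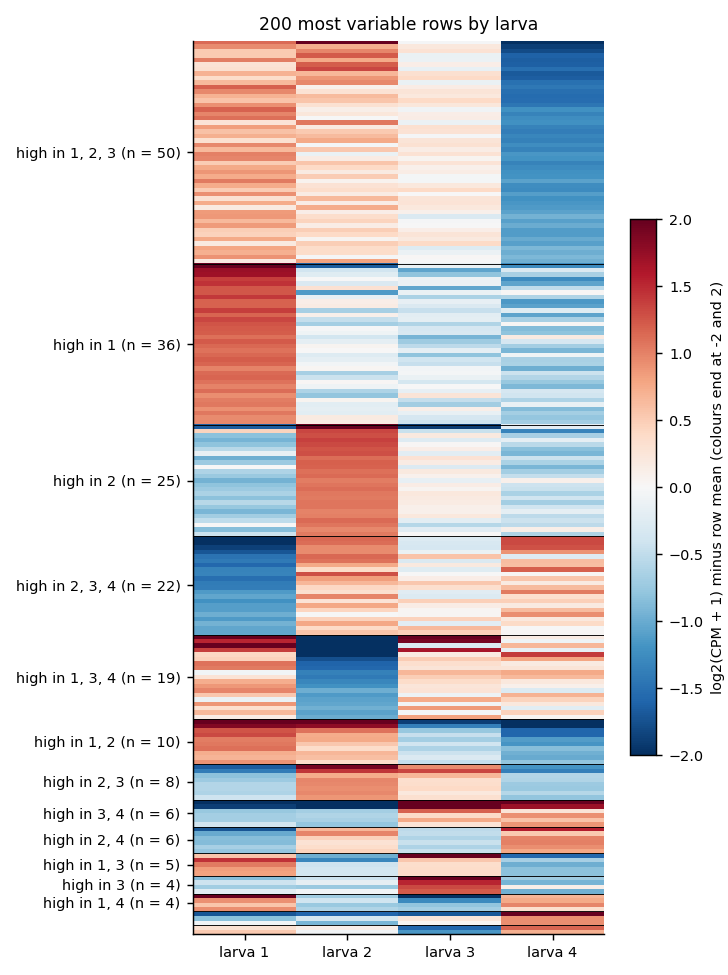
Each line is 1 of the 200 rows, grouped by the larvae above the widest gap, and colour gives log2(CPM+1) minus the row's mean in each larva, with the colour scale ending at 2 in either direction; groups of 3 and 2 rows at the bottom have no label. The largest block, 50 rows, is low in larva 4 and makes up 25% of the 200 against 5.27% of all ranked rows; the next, 36 rows high in larva 1, is 18% against 16.9%.

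The tissues that these genes mark were read from 46 lists of marker and pathway genes. Of the 9545 rows, 1085 (11.4%) were on a list, and 65 of the 200 (32.5%) were. The lists were chosen with earlier results of these data known, so these shares are a description and not a test. The lens list had 11 of its 43 ranked genes among the 200, and the exocrine pancreas list 10 of 24. The macrophage and microglia list had 7 of 20, the hepatocyte list 6 of 56 and the inflammation list 6 of 22. Interferon response had 4 of 18, fast muscle 4 of 55 and enterocyte 4 of 30. Kidney had 3 of 15, and the glucocorticoid and fasting response 3 of 37. Heart had 2 of 13, endocrine pancreas 2 of 6 and neutrophil 2 of 15, and 5 further lists had 1 each. Of all ranked rows, 2.1% were among the 200. A gene on several lists is counted in each. Counts of genes highest or lowest in a larva can be set beside those of all ranked rows. Of these, 33.7, 29.3, 13.6 and 23.4% were highest in larvae 1 to 4, and 36.8, 29.9, 16.2 and 17.1% were lowest. With library totals alone, 59.3% were highest in larva 1 and 55.1% lowest in larva 2. Of the 200 themselves, 96 were highest in larva 1 and 98 lowest in larva 4. The other 135 rows were on no list.

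**Figure D4:**
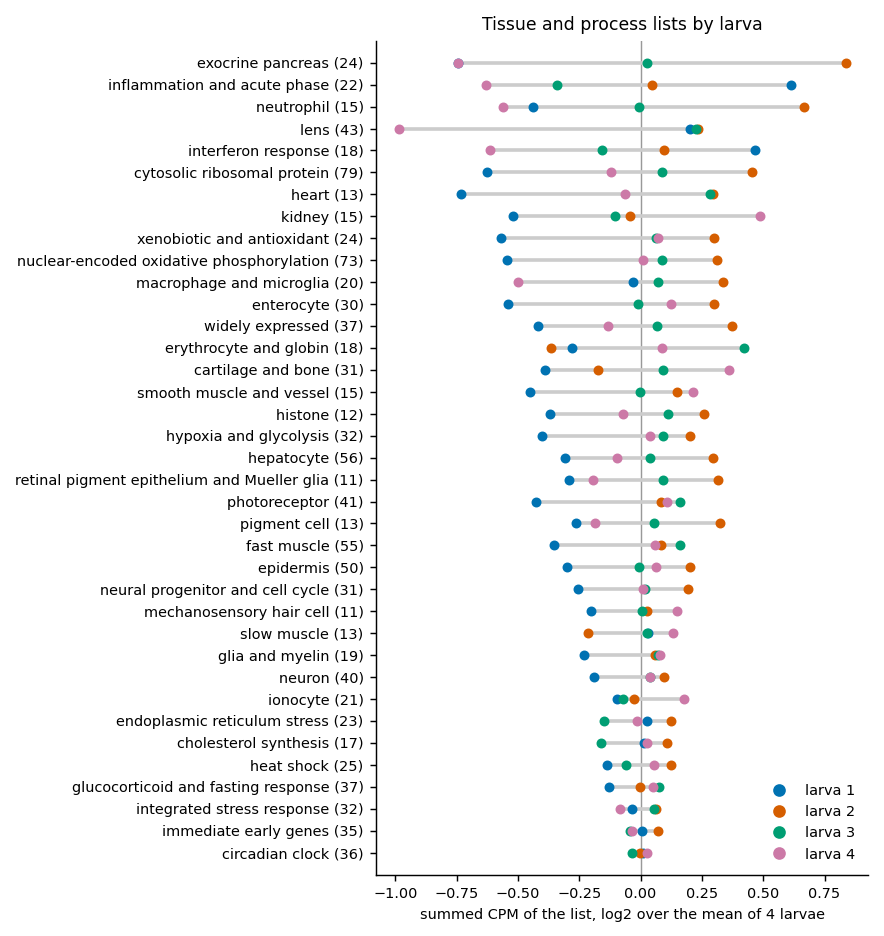
Summed CPM of all rows found for each list, as log2 over the mean of the 4 larvae, for lists with at least 10 members at a mean of 10 CPM or more, whose number is in brackets, and lists ordered by their range. The exocrine pancreas has the widest range with larva 2 highest, and the lens list is low in larva 4 alone. With the TMM factors used here, the clock and immediate early lists are almost the same in all 4 larvae. The neutrophil and heart sums are carried largely by cpa5 and actc1b, which are also genes of pancreas and skeletal muscle.

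Lens messages were low in a single animal. Summed over all 69 lens rows found, the level was 15749, 16123, 16009 and 6917 CPM in larvae 1 to 4. Larvae 1, 2 and 3 differed by little, and larva 4 lay 2.33-fold below the highest. All 43 lens genes with a mean of 10 CPM or more were lowest in larva 4, and 42 were with libraries scaled by totals alone. Which of the other animals was highest changed from larva 2 to larva 1 with that scaling. In a whole-animal sample, fewer cells of a type and less RNA per cell cannot be told apart.

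The strongest lens spread was in crybb1l1 and crybb1, which encode beta-crystallins. crybb1l1 was at 1293, 1120, 779 and 183 CPM in larvae 1 to 4, a 7.07-fold range (SD 1.29). crybb1 was at 806, 1100, 681 and 162 CPM (SD 1.22). In both, the value of larva 4 was separated from the other 3 by a wide gap. mipb and mipa, aquaporin water channels of lens fibres, were at 179, 174, 137 and 33.7 CPM and at 91.1, 44.8, 57.3 and 18.9 CPM. cryaa, an alpha-crystallin with chaperone activity, was at 46.6, 44.4, 32.9 and 9.09 CPM. crygmx, a gamma-crystallin, was at 368, 364, 325 and 84.8 CPM. The same order of larva 4 below all others held for cryba1b, cryba4, crybb1l2, cryba1l2 and grifin, a galectin-related lens protein. BFSP1, which encodes a beaded filament protein of the lens and was on no list because of its spelling, was at 103, 64.6, 63.3 and 18.02 CPM. Near-identical crystallin genes can exchange reads in estimated counts, so the split between single crystallins is uncertain. The lens list had 0 members in the 200 when larva 4 was left out and between 11 and 18 when another larva was.

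Photoreceptor genes, also of the eye, ranked the larvae differently. The 73 rows found for the photoreceptor list summed to 6912, 9830, 10373 and 10016 CPM, so larva 4 lay within the range of larvae 2 and 3 and larva 1 was lowest. rho, the rod visual pigment, was at 613, 878, 1157 and 921 CPM. None of the 41 photoreceptor genes with a mean of 10 CPM or more was among the 200, although pde6h, a cone phosphodiesterase subunit spelled otherwise on the list, was, at 33.4, 12.9, 12.4 and 45.0 CPM. That gene was high in larvae 1 and 4 and low in larvae 2 and 3.

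Digestive enzymes of the exocrine pancreas were high in larva 2. Summed over all 32 rows found, the level was 16591, 49708, 28354 and 16630 CPM in larvae 1 to 4, a 3.00-fold range. All 24 genes with a mean of 10 CPM or more were highest in larva 2 with TMM factors and with library totals alone, and none was highest elsewhere. Larvae 1 and 4 were close to each other, and which of them was lowest depended on the scaling. The whole list moved together, so that its median SD was 0.72 against 0.23 for all ranked rows, and single members lie near the boundary of the 200.

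prss59.2, a trypsin-type protease, was at 2969, 9559, 5288 and 2954 CPM. ctrb1, a chymotrypsinogen, was at 1567, 5128, 2730 and 1499 CPM. pla2g1b, the secreted pancreatic phospholipase, had the largest SD of the list (0.93) at 17.5, 63.9, 29.0 and 14.2 CPM. In each, larva 2 was highest, larva 3 came next, and larvae 1 and 4 lay below. The other members in the 200 were the trypsin prss1, the elastases ela2, ela2l and CELA1 (1 of many), the bile-salt-stimulated lipases cel.1 and cel.2, and the chymotrypsinogen zgc:136461, all highest in larva 2. amy2a, pancreatic amylase, and prss59.1, both named outside the rule for named genes, followed the same order just under the boundary, at 277, 773, 450 and 276 CPM and at 1502, 4013, 2460 and 1361 CPM. Because the members crowd near it, their number among the 200 was 1 with library totals alone, 0 without larva 2, and 17, 16 and 15 without larvae 1, 3 and 4.

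Islet hormones followed a related order. gcga, a glucagon gene, was at 7.77, 36.7, 20.1 and 11.9 CPM and ins, the main insulin gene, at 5.46, 18.1, 16.9 and 6.56 CPM. Larva 1 was lowest in both and larva 2 highest, except that ins was highest in larva 3 with library totals alone, and larva 4 was near larva 1 for insulin. Only 6 endocrine pancreas genes reached a mean of 10 CPM, and these 2 were the ones in the 200. With library totals alone, larva 2 was highest in 1 of the 6 in place of 4.

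Bile acid and lipid genes of the liver were among the members as well. cyp7a1, the rate-limiting enzyme of bile acid synthesis, was at 15.3, 99.5, 66.0 and 37.0 CPM, a 6.51-fold range (SD 1.14). It was highest in larva 2 and lowest in larva 1. nr0b2a, which encodes the SHP repressor that acts on bile acid synthesis in mammals, was at 25.6, 16.5, 18.04 and 6.09 CPM, with larva 1 highest and larva 4 lowest. pltp, a phospholipid transfer protein of plasma, was highest in larva 2 at 40.8 CPM against 12.4 to 18.99 CPM in the others. Of 56 hepatocyte genes, 6 were in the 200. All 6 encode complement factors, the iron hormone hepcidin or lect2l, an immune-related secreted protein. The list's median SD was 0.35 against 0.23 for all ranked rows. Outside the 200, tfa was steady (SD 0.04), while fetub (SD 0.45) and apoa2 (SD 0.59) varied more.

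Complement messages among the 200 were high in larva 1 and low in larva 4. The 8 complement-related members of the 200 were c3a.1, c3a.2, c3a.3 and c3a.6, which encode complement C3, cfb and cfbl of the factor B family, c4b and cfhl5 of the factor H family. They were grouped after their values were seen. All 8 were highest in larva 1 and lowest in larva 4 with each of the 4 scalings tried. With TMM factors 96 of the 200 were highest in larva 1 and 98 were lowest in larva 4. c3a.1 was at 1366, 652, 573 and 261 CPM (SD 0.98). cfb was at 360, 137, 126 and 56.9 CPM, a 6.32-fold range (SD 1.08), and c4b at 134, 61.2, 64.0 and 20.9 CPM. In these 3 genes larvae 2 and 3 lay between the extremes and close together. The C3 genes are close copies, so the division of reads among them is uncertain.

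The inflammation and acute phase list also had larva 1 at its high end. Its 35 rows summed to 2933, 1981, 1515 and 1237 CPM in larvae 1 to 4. Without c3a.1, which is on this list too, the sums were 1568, 1329, 942 and 976 CPM, a sum taken after the values were seen, and larva 3 was lowest. Of its 22 genes with a mean of 10 CPM or more, 17 were highest in larva 1 and 5 in larva 2. None was lowest in larva 1, 4 were in larva 2, 10 in larva 3 and 8 in larva 4. hamp, the iron-regulating hormone hepcidin, was at 27.7, 3.33, 0.76 and 10.27 CPM (SD 1.74). steap4, a metalloreductase induced in inflammation in mammals, was at 48.9, 10.5, 6.25 and 11.4 CPM (SD 1.202). For hamp and steap4 larva 1 was highest, larva 3 lowest and larva 4 was not low, unlike in the complement genes. cxcl18b, a chemokine, was at 25.4, 9.65, 4.79 and 22.6 CPM, so larvae 1 and 4 were both high. acod1, which makes itaconate in activated macrophages, was at 151, 56.7, 39.2 and 51.0 CPM. il1b, the cytokine interleukin-1 beta, named outside the rule for named genes, was outside the 200 at 49.1, 26.0, 16.9 and 26.1 CPM, again with larva 1 highest. The nuclear factor kappa B subunit nfkb2 was at 75.4, 25.5, 24.1 and 49.8 CPM.

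Interferon-linked genes also had larva 4 at the low end. The list's 41 rows summed to 1116, 864, 725 and 528 CPM. Of its 18 genes with a mean of 10 CPM or more, 13 were highest in larva 1 and 15 lowest in larva 4. Of its 4 members in the 200, stat1b, a transcription factor of interferon signalling, was at 33.5, 23.0, 14.5 and 8.83 CPM. irf7, a second such factor, was at 24.9, 18.4, 11.6 and 7.02 CPM. Both ran from high to low in the order of larvae 1, 2, 3 and 4. isg15, a ubiquitin-like protein, had larva 2 highest at 91.5 CPM against 24.2 to 43.9 CPM in the others. The Mx GTPase gene mxc was highest in larva 3, at 11.3, 3.26, 32.4 and 1.81 CPM (SD 1.61), and mxf was highest in larva 1, at 167, 43.2, 28.8 and 32.3 CPM (SD 1.15). Members of 1 antiviral family thus peaked in different larvae. psmb10 and psmb12, proteasome subunits, psme2, a proteasome activator, uba7, the activating enzyme for ISG15, and irf10, a further interferon regulatory factor, were lowest in larva 4. Over these 10 members, grouped after their values were seen, 8 were lowest in larva 4, as 98 of the 200 were. The group leaves out ifi45 and zgc:152791, which also has the name ifi27.2. Both are among the 200 and lay high in larva 2 alone.

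Macrophage genes gave 7 members. The 32 rows of the list summed to 2505, 3238, 2695 and 1811 CPM. Of its 20 genes with a mean of 10 CPM or more, 15 were lowest in larva 4, 10 were highest in larva 1 and 8 in larva 2. grn2, a granulin, was at 29.4, 42.6, 29.95 and 6.56 CPM (SD 1.12). marco, a scavenger receptor, was at 45.7, 11.0, 27.7 and 18.7 CPM, so its low value was in larva 2. cybb, the catalytic subunit of the phagocyte NADPH oxidase, was at 109, 51.4, 39.5 and 29.7 CPM. lgals9l1 and ctss2.1, a galectin and a cathepsin S, and mfap4, a standard macrophage marker, were also lowest in larva 4, whereas lgals3bpb was highest in larva 2 at 53.0 CPM and lowest in larva 1 at 11.4 CPM. mpeg1.1, the usual macrophage reporter gene, named outside the rule for named genes, was at 42.2, 25.2, 30.7 and 14.4 CPM (SD 0.62), outside the 200 but with larva 1 highest and larva 4 lowest. Without larva 4 the list gave 4 members.

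Neutrophil genes did not move as a block. mpx, the granule peroxidase, named outside the rule for named genes, was at 71.5, 90.2, 80.1 and 55.2 CPM (SD 0.30). lyz, lysozyme, was at 70.16, 259, 136 and 92.5 CPM (SD 0.81), with larva 2 highest as for the pancreatic enzymes. csf3r, the receptor for the neutrophil growth factor G-CSF, was at 21.1, 15.2, 14.4 and 4.59 CPM, with larva 4 lowest. The lymphoid and thymus list had 0 genes with a mean of 10 CPM or more. Leukocyte signalling genes on no list included plek, card9, ptpn6, myo1f, FERMT3 (1 of many), caspb, samsn1a, fmnl1a, fgl2a and irak3. All 10, picked after their values were seen, were highest in larva 1 with each of the 4 scalings tried. With TMM factors 96 of the 200 were highest there. Of the 10, 6 were lowest in larva 4, as 98 of the 200 were. The choice leaves out il10rb, a cytokine receptor gene on no list and among the 200, in which larva 1 lay below the widest gap. The shared order of the 10 thus describes the genes picked and not all leukocyte genes among the 200.

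Genes of endocytic protein uptake and of the intestinal brush border were low in larva 1. lrp2b, a member of the megalin family of endocytic receptors, was at 5.76, 34.1, 14.4 and 65.1 CPM, an 11.3-fold range (SD 1.43). cubn, its partner receptor cubilin, was at 20.4, 69.7, 45.1 and 124 CPM (SD 1.07), and amn, the amnionless protein that carries cubilin to the cell surface, at 2.36, 15.9, 10.5 and 14.2 CPM (SD 1.07). The order of larvae 1, 3, 2 and 4 from low to high was shared by lrp2b and cubn. Both kidney tubules and specialised enterocytes use these receptors, and whole-animal RNA does not separate the 2 sources. slc15a1a, a peptide transporter of the brush border, was at 8.82, 59.08, 23.4 and 24.1 CPM, with larva 2 highest. ctsl.1 and ctsbb, lysosomal cathepsins L and B, were at 164, 606, 393 and 403 CPM and at 14.7, 98.4, 46.2 and 95.8 CPM. ace, angiotensin-converting enzyme, alpi.2, an intestinal alkaline phosphatase, and slc6a18, an amino acid transporter, were highest in larva 4 at 88.2, 21.9 and 26.3 CPM. All 9 of these genes, grouped after their values were seen, were lowest in larva 1, and 8 were with library totals alone. With TMM factors 54 of the 200 and 36.8% of all ranked rows were lowest there. By library totals alone 15.7% of all ranked rows were. The shared order thus describes the genes picked.

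The enterocyte and kidney lists as a whole also had larva 1 at the low end. Of 30 enterocyte genes with a mean of 10 CPM or more, 23 were lowest in larva 1 and none was highest there; with library totals alone these numbers were 20 and 2. Larva 2 was highest in 14 and larva 4 in 16. The 29 rows of the kidney list summed to 476, 663, 635 and 958 CPM. Of its 15 genes with a mean of 10 CPM or more, 11 were highest in larva 4 and 11 lowest in larva 1, or 8 lowest with library totals alone. slc20a1a, a phosphate transporter on the kidney list, was at 23.2, 23.7, 64.8 and 56.4 CPM, so larvae 3 and 4 were high. dab2, the endocytic adaptor of these receptors, and lrp2a, the megalin gene best known from the larval kidney, both named outside the rule for named genes, were at 22.2, 45.3, 30.9 and 58.8 CPM and at 37.4, 61.2, 53.6 and 65.6 CPM. Larva 1 was not lowest in cdh17, a cadherin gene also named outside that rule. It was at 79.0, 66.8, 65.0 and 117 CPM in larvae 1 to 4, with larva 3 lowest.

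Giant sarcomere genes and genes of muscle protein breakdown were low in larva 2. ttn.1 and ttn.2, which encode titin, the spring of the sarcomere, were at 169, 35.7, 175 and 213 CPM (SD 1.18) and at 183, 56.2, 213 and 239 CPM (SD 0.95). Larvae 1, 3 and 4 were close in both, and larva 2 lay far below. fbxo32 and trim63a, ubiquitin ligases of muscle atrophy known as atrogin-1 and MuRF1 in mammals, were at 28.7, 3.61, 16.6 and 14.9 CPM (SD 1.14) and at 74.8, 19.1, 38.5 and 46.3 CPM (SD 0.79). klhl38b, a kelch family gene, was at 18.6, 2.22, 10.4 and 10.4 CPM. All 5, grouped after their values were seen, were lowest in larva 2 with each of the 4 scalings tried. With TMM factors 32 of the 200 and 29.9% of all ranked rows were lowest there. With library totals alone 55.1% of all ranked rows were. neb, which encodes the giant thin-filament protein nebulin, and trim63b, both named outside the rule for named genes, were also lowest in larva 2, at 166 CPM against 294 to 416 CPM and at 11.7 CPM against 27.3 to 34.1 CPM.

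Contractile genes were split between larvae 1 and 2 at the low end. The 58 rows of the fast muscle list summed to 92837, 125643, 132871 and 123529 CPM, so larva 1 was lowest in the sum; with library totals alone the lowest sum was in larva 2. Of its 55 genes with a mean of 10 CPM or more, 28 were lowest in larva 2 and 25 in larva 1. The fast myosins myhz1.1, myhz1.2 and myhz2 were lowest in larva 2, as titin was. acta1b, a skeletal alpha-actin, was at 493, 1493, 1490 and 1252 CPM (SD 0.76), with larva 1 alone low. myhb, a fast myosin heavy chain, was at 153, 28.9, 58.6 and 65.2 CPM (SD 0.97), with larva 1 alone high. pdk2b, a kinase that restrains glucose oxidation, was highest in larva 3 at 80.8 CPM and lowest in larva 2 at 22.7 CPM. The glucocorticoid and fasting response list, which includes fbxo32, trim63a and trim63b, had 37 genes with a mean of 10 CPM or more. Of these, 23 (62.2%) were lowest in larva 2 with TMM factors, against 29.9% of all ranked rows. With library totals alone 28 (75.7%) were, against 55.1% of all ranked rows.

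With TMM factors, genes for ribosomal proteins and the respiratory chain were lowest in larva 1 and mostly highest in larva 2. The 81 rows of the cytosolic ribosomal protein list summed to 74669, 157964, 122356 and 105899 CPM, a 2.12-fold range. All 79 of its genes with a mean of 10 CPM or more were lowest in larva 1 and highest in larva 2, and with library totals alone these numbers were 79 and 76. Their median SD was 0.46 against 0.23 for all ranked rows, and none was among the 200. All 73 nuclear-encoded genes of oxidative phosphorylation were lowest in larva 1 and 63 were highest in larva 2, with 64 and 35 under library totals alone, and 1, ndufb7, was among the 200 at 50.1, 137, 164 and 104 CPM. With TMM factors larvae 1 and 2 were thus at opposite ends for all 79 ribosomal protein genes and 63 of the 73 respiratory genes. They were at opposite ends the other way round for fbxo32 and trim63a. Ribosomal and respiratory genes are short and titin is very long; no transcript lengths or RNA integrity values were used here, and their part in these differences was not tested.

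Some members had values close to 0 in 1 or more animals. ctsba, a second cathepsin B gene, had 1, 2 and 1 counts in larvae 1, 2 and 3 and 2117 counts (109 CPM) in larva 4, the largest SD of all rows (3.34). ngs, the notochord granular surface gene, was at 1.203, 0, 65.5 and 44.9 CPM (SD 3.06), and vimr1, a vimentin-related gene, at 0.50, 0, 33.9 and 17.2 CPM (SD 2.56). In these 2 genes larvae 3 and 4 were high and larvae 1 and 2 were at or near 0. he1.1 and he1.2, hatching enzymes, were at 38.8, 0.35, 51.3 and 12.03 CPM and at 20.7, 0.14, 24.9 and 6.35 CPM. With TMM factors the 2 hatching enzymes had the same order, larva 2 being almost without them and larva 3 highest. With library totals alone both were still lowest in larva 2, but 1 was highest in larva 1 and 1 in larva 3. Beside he1.1, a second row of the same name was at 2.105, 0, 4.90 and 0 CPM. tgm1l3, of the transglutaminase family, was at 36.3, 0.42, 3.09 and 0.88 CPM, so it was high in larva 1 alone. PLBD2, a phospholipase B-like gene, was at 6.67, 90.3, 45.7 and 9.76 CPM, with larvae 2 and 3 high. It was low but not absent in larvae 1 and 4, at 133 and 189 counts.

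Some rows with no assigned symbol also had wide ranges. zgc:152791, named ifi27.2 in the table of gene names, was at 1.55, 107, 1.17 and 6.20 CPM, so larva 2 stood alone. CR318588.1 was at 477, 1057, 213 and 20.03 CPM, a 52.8-fold range.

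**Figure D5:**
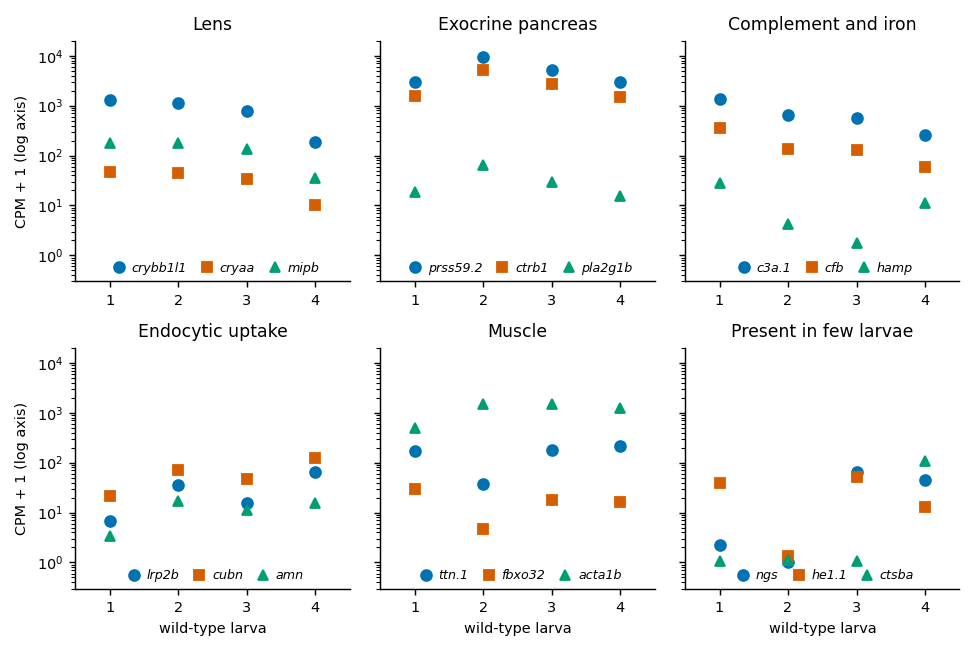
CPM + 1 (log axis) in each of the 4 larvae for 18 members of the 200 in 6 groups. Lens genes drop in larva 4, pancreatic enzymes peak in larva 2, c3a.1 and cfb are highest in larva 1 and lowest in larva 4, uptake receptors are lowest in larva 1, ttn.1 and fbxo32 are lowest in larva 2, and ngs, he1.1 and ctsba are near 0 in 1 to 3 larvae.

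In 4 members the spread belonged to 1 of 2 rows that share an Ensembl identifier. hnrnpdl, an RNA-binding protein gene, was at 93.7, 0, 80.4 and 22.1 CPM in the row that is a member, and at 46.7, 130, 60.0 and 102 CPM in the other row of the same name. Summed, they were at 140, 130, 140 and 124 CPM, and the SD was 0.09 in place of 3.05. The row si:ch73-45o6.2 and its partner ATG2A, an autophagy gene, summed to 57.2, 40.6, 53.8 and 56.6 CPM (SD 0.23 against 2.25). fasn, the fatty acid synthase, at 13.6, 11.8, 2.92 and 25.3 CPM, shared an identifier with ccdc57, and their sum was 60.9, 51.0, 42.9 and 41.2 CPM. The fourth was si:ch1073-429i10.3, whose summed SD was 0.41. These 4 left the 200 when rows with a shared identifier were summed, and the other 196 stayed.

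The clock and immediate early lists, which track the time or the handling of an animal, gave no member. With 2.1% of all ranked rows among the 200, lists of this size may well give none. With TMM factors the 36 clock genes had a median SD of 0.18, and the largest was 0.40 for nfil3-5, a transcription factor of the clock output. Their even levels depend on that scaling. By library totals alone, 29 of the 36 (80.6%) were highest in larva 1, against 59.3% of all ranked rows. per1b, a core repressor of the clock, named outside the rule for named genes, was at 95.2, 95.3, 90.2 and 94.0 CPM (SD 0.04). per2, a light-responsive member of the same family, was at 187, 289, 249 and 273 CPM (SD 0.28). The 35 immediate early genes, which respond within minutes to stimulation or stress, had a median SD of 0.26, above the 0.23 of all ranked rows. fosab and egr1, named outside the rule for named genes, were at 24.3, 28.0, 23.8 and 33.97 CPM and at 112, 127, 104 and 103 CPM. Lists of the integrated stress response (32 genes) and of endoplasmic reticulum stress (23 genes) also gave none. The heat shock list gave 1 of 25, hspb9, at 8.47, 28.5, 10.7 and 9.03 CPM. Median SDs of these lists were 0.21, 0.26 and 0.28 in that order.

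Neuron genes were steady, while other lists of nervous tissue were not steadier than all ranked rows. The 40 neuron genes had a median SD of 0.19, below the 0.23 of all ranked rows, and none was in the 200. The 19 glia and myelin genes, the 31 neural progenitor and cell cycle genes, the 11 hair cell genes and the 21 ionocyte genes gave none either. Their median SDs were 0.25, 0.30, 0.29 and 0.24, each above that of all ranked rows. Lists of this size may well give no member when 2.1% of all ranked rows are among the 200. Epidermis gave 1 of 50, cyt1l, a keratin, which ran at 322, 449, 680 and 1087 CPM in larvae 1 to 4. Cartilage and bone gave 1 of 31, col9a1b, a chain of cartilage collagen IX, at 13.3, 12.8, 56.8 and 24.2 CPM, with larva 3 highest. In that list 19 genes were highest in larva 4 and 18 lowest in larva 1 with TMM factors. Over all ranked rows these shares were 23.4% and 36.8%. By library totals alone, 22 of the 31 were highest in larva 4, 5 were lowest in larva 1 and 23 were lowest in larva 2. Of 18 erythrocyte and globin genes, 13 were highest in larva 3 and none was in the 200; hbae1.1, an embryonic alpha-globin, was at 173, 207, 400 and 281 CPM.

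Of the members on no list, those named here had a single larva high or low. High in larva 2 alone were aqp12, an aquaporin known from the pancreas in mammals, at 19.2, 86.9, 39.995 and 21.7 CPM, eevs, endou, rdh1, fep15, apoda.2 and pm20d1.1. Low in larva 1 alone were epdl2, cuzd1.1, sult2st2, rbfox1l, an RNA splicing factor of muscle, IZUMO1R, sptbn5, dap1b and smdt1b, a part of the mitochondrial calcium uniporter. Low in larva 4 alone were ogfrl2, lgals17, birc7, pllp, capn3a, tdh2, rnasel3 and vwa10.1, among others. col7a1, a collagen of anchoring fibrils in skin, was high in larva 4 alone at 23.8 CPM against 5.90 to 12.5 CPM, and col17a1b, a hemidesmosome collagen, was low in larva 2 alone at 5.90 CPM against 13.0 to 23.3 CPM. kcnk3b, a potassium channel, was high in larva 3 alone at 47.5 CPM against 9.60 to 19.02 CPM.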

How the data were processed

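Of the deposited table, the columns of the 4 wild-type larvae were used; the 4 homozygote columns were not, and columns of other samples numbered 0. Per the file header and values, the deposited values are estimated counts per gene row, which need not be whole (88.9 to 90.9% of values per larva were). Per the submitters' processing notes, the authors used Trimmomatic, STAR 2.7 and RSEM with build danRer11; the sources used here do not state settings, annotation or strand. RSEM splits reads among near-identical genes, so paralogs are uncertain, and overlapping or antisense genes may share reads. In all, 710 rows, 9 of them among the 200, share a symbol or identifier with another row. Of 28489 distinct Ensembl identifiers, 25745 were found in the table of gene names.

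Estimated counts were rounded. TMM factors came from the 19215 rows that passed edgeR's filterByExpr at a minimum count of 10 with the 4 larvae as 1 group (edgeR 4.0.16, R 4.3.3; other steps in Python 3.11.15 with pandas 2.3.3 and numpy 2.4.6). CPM was the rounded count over the scaled total. The SD used log2(CPM+1) with a pseudocount of 1. Counting error was obtained by the delta method and covers counting only. The common biological coefficient of variation in edgeR was 23.1%. Larvae are separate animals, and there was no contrast, so no comparison was tested; Dixon's ratio in the closing section is given as a description. List sums cover all rows found for a list.

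Genes named were the 30 most abundant and the 25 most variable with an assigned symbol, up to 5 of each list with at least 3 members, 3 rows on each side of the boundary, the 10 least variable at 100 CPM or more, and the most abundant gene of each list; further members of the 200 are named by pattern or list, and other genes are identified as outside the rule. The members, the 46 lists (1707 genes, 1552 found; 29 through the table of gene names) and the groups of members were chosen with earlier results of these data known. The mitochondrial genome list had 0 rows. The ranking steps were tested on simulated data with known spreads.

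Alternatives were other size factors, no filter, removal of the most abundant rows, unrounded counts, other pseudocounts, minimum levels and measures of spread (including the variance stabilising transformation of DESeq2 1.42.0), and leaving out each larva. Summing rows of 1 identifier was added after the data were seen. CPM per coding length and promoter motifs were planned but not run, since no transcript or protein lengths or promoter sequences were in the sources used here.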

Additional observations from a re-analysis of the deposited data

Results flagged for a closer look

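In some list sums and genes a single larva lay far from the other 3, read as the gap to the nearest larva as a share of the whole range on the log2 scale. A share above Dixon's critical value for 4 samples was found in 3 of 41 list sums and 12 of 134 named genes. Chance flags about 1 in 20 groups, and 5.40% of all ranked rows and 6.0% of the 200 most variable were above it, so the number found says nothing particular about these genes. Many of the genes were named for their spread over the same 4 values, so the shares are descriptions and not tests.

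Larva 4 was far below the others in the lens list sum (0.972, at 6917 CPM against 15749 to 16123 CPM). The same was so for 3 lens genes, namely mipb (0.839), crygmx (0.915) and crybb1l2 (0.879). It was far above the others for ctsba (0.983).

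With TMM factors, larva 1 was far below the others in the photoreceptor list sum (0.868) and in the glia and myelin list sum (0.938, at 1428 CPM against 1747 to 1771 CPM). The lowest glia and myelin sum moved to larva 2 with library totals alone. On that scale, 20 of the 41 photoreceptor genes with a mean of 10 CPM or more were lowest in larva 2 and 14 in larva 1. Larva 1 was also far below the others with TMM factors for the troponin gene tnnc2 (0.915, at 3450 CPM against 5407 to 5638 CPM) and the actin gene acta1b (0.841). Further such genes were pck1, an enzyme of glucose synthesis (0.841, at 1055 CPM against 1590 to 1719 CPM), pkmb, a pyruvate kinase (0.850, at 886 CPM against 1428 to 1553 CPM), cyp2r1, a vitamin D hydroxylase (0.885, at 4.16 CPM against 12.3 to 14.0 CPM), and ATG2A (0.834). ATG2A shares an identifier with si:ch73-45o6.2, and their sum was 57.2, 40.6, 53.8 and 56.6 CPM in larvae 1 to 4, highest in larva 1. Larva 2 was far below the others for the titin gene ttn.1 (0.870) and the myosin gene myhz1.2 (0.881, at 2854 CPM against 4605 to 4913 CPM).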

How the results depend on the processing

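No paired analysis was possible because the 4 larvae form 1 group and no contrast was fitted. With each larva left out in turn, the number of the 200 that stayed was 121 (without larva 4) to 173, rows with an SD of 1 or more were 47 to 106 (58 with all 4), and the larva most often farthest was so in 76 to 111 rows (69 with all 4). The mean level required changed the set most, and partly by construction. A higher minimum removes every member below it and leaves all other members in. At 1, 20 and 50 CPM the ranked rows were 19511, 5767 and 2341, those with an SD of 1 or more 163, 36 and 15, and 76, 130 and 65 of the 200 stayed; at 50 CPM larva 1 was farthest in 106. A pseudocount of 5 left 31 rows with an SD of 1 or more. Ranking by the median absolute deviation kept 125 of the 200. The share of all counts in the 100 most abundant rows was 9.94% when the first 100 were left out and the next 100 taken. Library totals alone kept 160 of the 200. At 10 CPM a value rests on at least 144 counts, but that level was required of the mean only. Single low values rest on few counts, such as 5 for he1.1 and 6 for tgm1l3 in larva 2. The SDs of such rows lean on few counts and on the pseudocount. The number of animals, 4, limits every SD, and 5 of the 200 stayed in all 23 alternatives tried. That number includes losses fixed in advance by the higher minimum levels and by leaving out the most abundant rows. CPM per coding length was not run.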
